A study of Mus musculus with 1 sample.

Results

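The 10 costimulatory receptor genes described here are Cd28, Icos, Tnfrsf4, Tnfrsf9, Tnfrsf18, Cd27, Cd40lg, Cd226, Cd2 and Cd5. These genes, called members, were chosen by name, and all 10 were found among the 32285 genes of the matrix. Their unique molecular identifiers (UMIs, tags that each mark 1 captured RNA molecule) were counted in barcodes with at least 1331 UMIs. The sample was blood of 1 mouse of the autochthonous small cell lung cancer (SCLC) model, in which Rb1 and Trp53 are deleted conditionally on a C57BL/6 background after intratracheal Adeno-Cre virus, so the host keeps its own immune system. The mouse received vehicle, phosphate-buffered saline, every 3 days, its exact age and the promoter that drives Cre are not given in the sources used here, and 150 µl of blood was depleted of cells other than T cells before 10x Genomics sequencing. With 1 library there was no replicate error and no test, and all intervals are exact 95% intervals that cover counting error only (Poisson for UMI sums, Clopper-Pearson binomial for shares, conditional for ratios). A count of 0 is given the limit that 3 counts would set. Treated and healthy mice were not analysed here.

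A T cell needs a costimulatory signal beside the one from its antigen receptor. CD28 and ICOS belong to the immunoglobulin superfamily, bind CD80 and CD86 or ICOS ligand on antigen-presenting cells, and signal through phosphatidylinositol 3-kinase. OX40 (Tnfrsf4), 4-1BB (Tnfrsf9), GITR (Tnfrsf18) and CD27 are tumour necrosis factor receptor family members that recruit TRAF adaptors and activate NF-kB. CD40 ligand (Cd40lg) is itself a ligand, displayed by helper T cells to B cells and dendritic cells. CD226 shares the ligand CD155 with the inhibitory receptor TIGIT, CD2 is an adhesion receptor that binds CD48 in the mouse, and CD5 tunes signalling by the antigen receptor. In resting blood CD28, CD27, CD2 and CD5 mark most T cells, while OX40, 4-1BB and GITR are known from regulatory and recently activated T cells.

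In the mouse genome build GRCm38.p6 several of these genes lie close together. Tnfrsf4 (chr4:156013595-156016613) and Tnfrsf18 (chr4:156026322-156028894) are separated by 9708 bases, and Tnfrsf9 lies on the same chromosome (chr4:150920155-150946104). Cd28 (chr1:60746388-60773359) and Icos (chr1:60960773-61000322) are 187413 bases apart. Cd27 is on chromosome 6, Cd40lg on X, Cd226 on 18, Cd2 on 3 and Cd5 on 19, and all are annotated as protein-coding. Promoter sequences from RefSeq, 250 bases before to 50 after a transcription start, were at hand for 5 of the 10 genes. Those of Tnfrsf4 and Tnfrsf18 are shown because these neighbours were high in the same class of barcodes, and that of Tnfrsf9 at chr4:150927749-150928048, 1 of 2 for this gene, because it held matches to motifs of factors activated with T cells. All lie on the plus strand, and capitals mark the NF-kB match at -43 and the AP-1 match at -15 from the start.
Tnfrsf4 promoter, chr4:156013445-156013744: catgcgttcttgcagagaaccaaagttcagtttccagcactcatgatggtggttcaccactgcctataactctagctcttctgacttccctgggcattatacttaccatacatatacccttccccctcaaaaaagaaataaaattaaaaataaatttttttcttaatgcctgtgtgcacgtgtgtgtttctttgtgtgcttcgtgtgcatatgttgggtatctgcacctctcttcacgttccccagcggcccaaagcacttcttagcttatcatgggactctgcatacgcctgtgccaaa
Tnfrsf18 promoter, chr4:156026072-156026371: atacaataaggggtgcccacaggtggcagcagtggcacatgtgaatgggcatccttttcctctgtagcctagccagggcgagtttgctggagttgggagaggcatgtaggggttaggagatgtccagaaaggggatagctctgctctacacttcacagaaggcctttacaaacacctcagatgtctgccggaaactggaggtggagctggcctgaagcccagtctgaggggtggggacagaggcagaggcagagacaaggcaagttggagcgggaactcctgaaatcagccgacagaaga
Tnfrsf9 promoter, chr4:150927749-150928048: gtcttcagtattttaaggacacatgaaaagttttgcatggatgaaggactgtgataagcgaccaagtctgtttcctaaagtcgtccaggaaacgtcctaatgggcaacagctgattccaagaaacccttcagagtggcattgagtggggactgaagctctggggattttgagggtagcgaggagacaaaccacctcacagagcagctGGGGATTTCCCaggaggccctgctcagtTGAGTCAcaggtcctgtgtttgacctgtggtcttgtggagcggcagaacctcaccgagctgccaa
The motifs searched on both strands were the NF-kB consensus, AP-1 (TGAGTCA or TGACTCA) and the forkhead core GTAAACA. The Tnfrsf9 promoter shown was the only one of the 6 available with a match, and its 2 NF-kB matches on the plus strand overlap. Among all 32851 promoters of this length, 4.51% held the NF-kB consensus, 5.20% AP-1 and 3.65% the forkhead core. A match describes letters in this window and not a bound site.

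Barcodes were sorted into disjoint classes by the UMIs they held. Those with a Cd79a UMI (a chain of the B cell receptor complex) formed the Cd79a class of 106 barcodes, and those with a Foxp3 UMI (the regulatory T cell factor) the Foxp3 class of 39. Of the rest, 351 held Cd4 without Cd8a or Cd8b1 (Cd4-only) and the remaining Cd8-only barcodes held Cd8a or Cd8b1 without Cd4, of which 106 had a UMI of the granzyme genes Gzmk, Gzma or Gzmb and 595 had none. The other 403 of 1600 barcodes entered no comparison. Median UMIs were 3361 in Cd4-only, 3948 in Foxp3, 5664 in Cd8-only without and 5412 with a granzyme UMI, and 3657 in Cd79a barcodes, so levels are given as UMIs pooled over a class per 10000.

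The labels were checked against marker genes. At least 1 of 6 T cell genes was found in all 351 Cd4-only barcodes, 38 of 39 Foxp3 barcodes and 593 of 595 and 106 of 106 Cd8-only barcodes without and with granzyme UMIs, against 30 of 106 Cd79a barcodes. Of the regulatory T cell genes that did not define a class, Ikzf2 was 6.84 per 10000 in Foxp3 and 1.12 in Cd4-only barcodes. The Foxp3 class was mixed, with Cd4 UMIs in 18 and Cd8a or Cd8b1 UMIs in 8 of its 39 barcodes, and CD8 T cell genes (Cd8a, Cd8b1, Runx3) summed to 4.90 and CD4 T cell genes (Cd4, Izumo1r, Zbtb7b) to 4.07 per 10000. In it 1 barcode held all 539 neutrophil marker UMIs, and B cell genes, mainly Ighm, were found in 24 barcodes at 4.44 per 10000, against 1.16 in Cd4-only barcodes. Ribosomal protein genes gave under 10% of UMIs in 40.2% of Cd4-only, 23.1% of Foxp3, 32.4% of Cd8-only without and 9.43% with a granzyme UMI, and 26.4% of Cd79a barcodes.

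**Figure D1:**
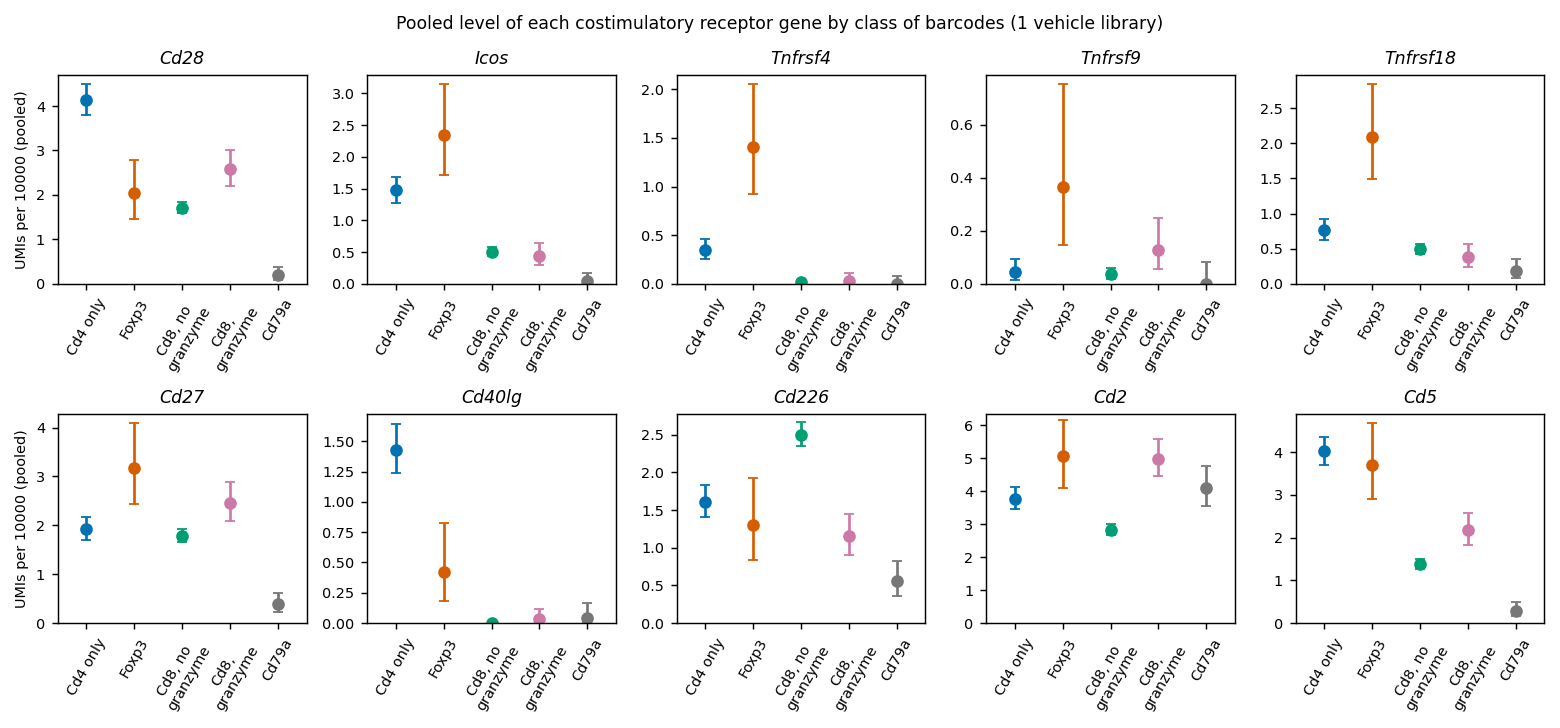
Pooled level of each gene in UMIs per 10000 (y axis, from 0) in the 5 classes of barcodes (x axis), where bars are exact 95% Poisson intervals and no replicate exists. Tnfrsf4 and Tnfrsf18 peak in Foxp3 barcodes (1.41 and 2.09), Cd40lg in Cd4-only barcodes (1.43) and Cd226 in Cd8-only barcodes without a granzyme UMI (2.50), and only Cd2 is as high in Cd79a barcodes (4.11) as in T cell classes.

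Cd28, the receptor for CD80 and CD86, was highest in Cd4-only barcodes at 4.13 UMIs per 10000 (3.80 to 4.49, from 567 UMIs). It came to 2.58 (2.20 to 3.003) in Cd8-only barcodes with a granzyme UMI, 2.03 (1.45 to 2.78) in Foxp3 barcodes and 1.71 (1.59 to 1.85) in Cd8-only barcodes without granzyme. The intervals of the Foxp3 class overlapped those of both Cd8-only classes, so its place among them was not resolved. In the Cd79a class it was 0.202, with a UMI in 6.60% of barcodes against 70.9% of Cd4-only barcodes. Icos, induced on activation and kept on helper and regulatory T cells, was ordered otherwise. It was highest in Foxp3 barcodes at 2.35 (1.71 to 3.14, from 45 UMIs), then 1.47 (1.28 to 1.69) in Cd4-only, 0.507 and 0.443 in Cd8-only barcodes without and with granzyme, and 0.0449 in Cd79a barcodes. The largest Icos count in a Foxp3 barcode was 9, and means over barcodes were 1.89 in Foxp3 and 1.57 in Cd4-only barcodes. The levels in both Cd8-only classes did not differ beyond their intervals (0.439 to 0.583 and 0.294 to 0.639).

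Tnfrsf4, encoding OX40, was found at 1.41 per 10000 (0.928 to 2.05, from 27 UMIs) in Foxp3 barcodes and 0.343 (0.252 to 0.456) in Cd4-only barcodes. Cd8-only barcodes held 6 UMIs without and 2 with granzyme UMIs in their classes, and Cd79a barcodes 0, which allows up to 0.0674 per 10000. The 6 UMIs in Cd8-only barcodes without granzyme compare with 2.10 that an assumed 5% of free RNA would carry over, and whether they are expression was not tested. Tnfrsf18, encoding GITR, had its highest level in the same class, 2.09 (1.49 to 2.84) in Foxp3 barcodes, followed by 0.766 (0.626 to 0.927) in Cd4-only and 0.494 and 0.379 in Cd8-only barcodes. Its share in Cd79a barcodes was 7.55%, against 46.2% of Foxp3 and 25.7% of Cd8-only barcodes without granzyme. After every barcode was thinned to 2500 UMIs these shares were 6.33%, 26.5% and 10.7%.

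Tnfrsf9, encoding 4-1BB, was sparse. It gave 7 UMIs in 5 of 39 Foxp3 barcodes, 6 in 6 of 351 Cd4-only, 14 in 13 of 595 Cd8-only without and 8 in 7 of 106 with a granzyme UMI, and 0 in Cd79a barcodes. Per 10000 these are 0.365 (0.147 to 0.752), 0.0437 (0.0161 to 0.0952), 0.0360 (0.0197 to 0.0604) and 0.126 (0.0546 to 0.249). The intervals of the Foxp3 and the granzyme class overlap. Cd27, the receptor for CD70 that is lost on late effector T cells, was by contrast present in every T cell class. Its level was 3.18 (2.43 to 4.09) in Foxp3, 2.47 (2.09 to 2.88) in granzyme-positive Cd8-only, 1.93 (1.71 to 2.18) in Cd4-only and 1.79 (1.65 to 1.92) in granzyme-negative Cd8-only barcodes, and 0.382 in Cd79a barcodes. The intervals of neighbouring T cell classes in this order overlapped, and that of the Cd79a class lay below them. No UMI of its ligand gene Cd70 was found in any of the 5 classes.

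For Cd40lg, encoding CD40 ligand, Cd4-only barcodes held 196 UMIs, 1.43 per 10000 (1.24 to 1.64), in 38.2% of barcodes. The 595 Cd8-only barcodes without granzyme held 0 in 3886273 UMIs, which allows up to 0.00772 per 10000 and a share of barcodes with a UMI of up to 0.504%. At an assumed 5% of free RNA, 4.20 UMIs would have been found there by carry-over. Cd8-only barcodes with granzyme and Cd79a barcodes held 2 UMIs each. Foxp3 barcodes held 8 UMIs, 0.417 per 10000 (0.180 to 0.823), in 3 barcodes, and 5 of the 8 were in 1 barcode.

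Cd226 was highest in Cd8-only barcodes without granzyme at 2.50 per 10000 (2.35 to 2.66, from 972 UMIs). Cd4-only barcodes had 1.61 (1.41 to 1.84), Foxp3 barcodes 1.30 (0.844 to 1.93) and Cd8-only barcodes with granzyme 1.15 (0.904 to 1.45), and the Foxp3 interval overlapped both neighbours. The share of barcodes with a Cd226 UMI was 66.6% in granzyme-negative and 30.2% in granzyme-positive Cd8-only barcodes, against 11.3% of Cd79a barcodes, and 44.0%, 16.8% and 10.1% after thinning to 2500 UMIs. Cd2 ranged from 2.83 (2.67 to 3.003) in granzyme-negative Cd8-only barcodes over 3.78 (3.46 to 4.12) in Cd4-only to 4.99 (4.46 to 5.58) in granzyme-positive and 5.06 (4.10 to 6.17) in Foxp3 barcodes. Cd5 was 4.02 (3.69 to 4.37) in Cd4-only and 3.70 (2.89 to 4.67) in Foxp3 barcodes, which did not differ beyond their intervals, 2.18 (1.83 to 2.58) in granzyme-positive and 1.39 (1.27 to 1.51) in granzyme-negative Cd8-only barcodes.

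Most member UMIs of the Cd79a class, apart from Cd2, lay in barcodes that also held T cell RNA. Cd2 was found in 73 of its 106 barcodes (68.9%) at 4.11 per 10000 (3.54 to 4.75), a level within those of T cells, and mouse B cells are known to carry CD2. Of its 183 Cd2 UMIs, 34 were in the 18 Cd79a barcodes that also held Cd3e. For Cd27 all 17 UMIs of the class were in those 18 barcodes, for Cd226 21 of 25, for Cd5 11 of 13, for Cd28 7 of 9 and for Icos 2 of 2. Tnfrsf18 was spread otherwise, with 4 of its 8 UMIs there.

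**Figure D2:**
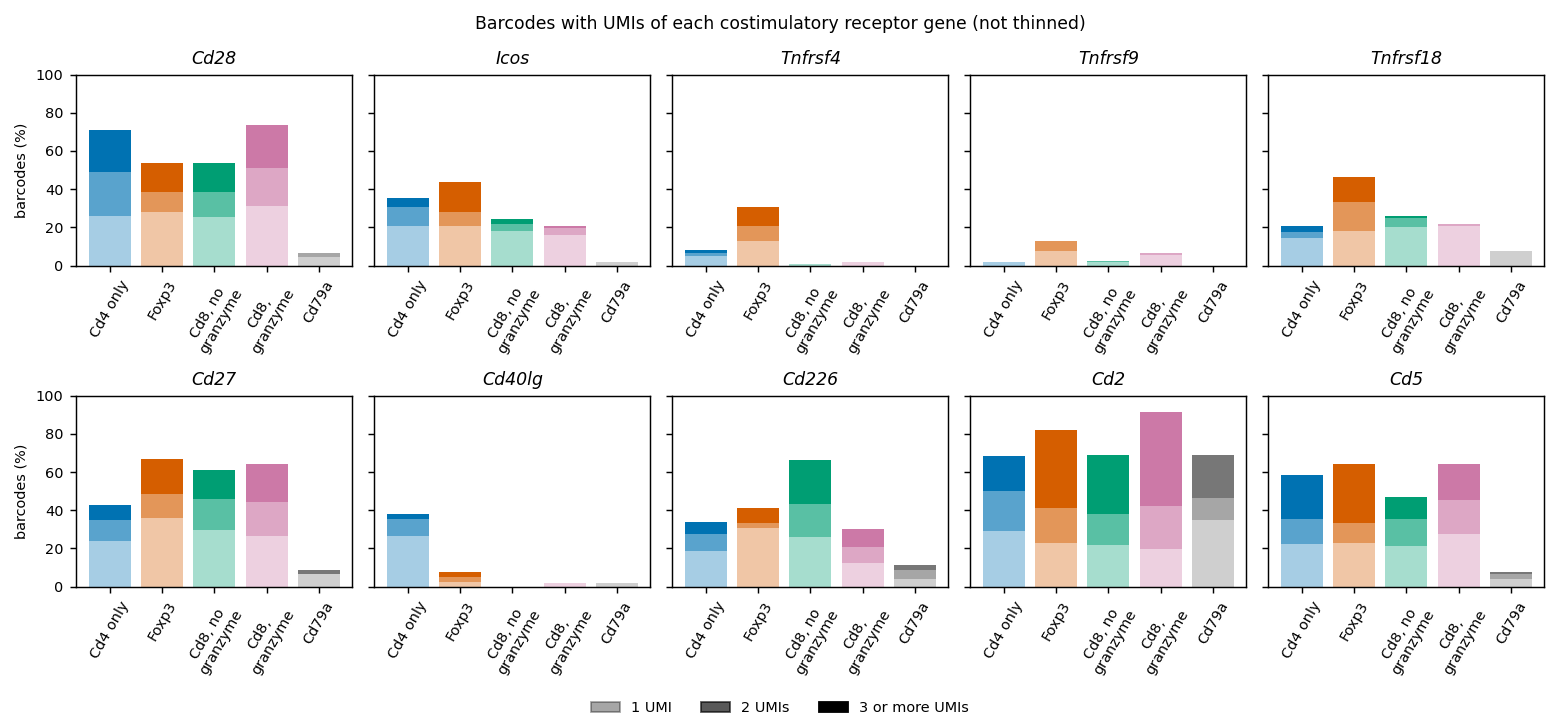
Share of barcodes (y axis, percent) with 1, 2 or at least 3 UMIs of each gene (pale to dark) in the 5 classes (x axis), at full depth. Cd2 reaches 91.5% of Cd8-only barcodes with a granzyme UMI, Cd40lg is found in 38.2% of Cd4-only and 0 of 595 granzyme-negative Cd8-only barcodes, and Tnfrsf4 in 30.8% of Foxp3 barcodes.

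Foxp3 barcodes were compared with Cd4-only barcodes to set T cells with the regulatory factor against CD4 T cells without its UMIs, although only 18 of the 39 Foxp3 barcodes held Cd4. Tnfrsf4 was 4.11-fold higher (2.46 to 6.74) and Tnfrsf18 2.73-fold higher (1.85 to 3.96) in Foxp3 barcodes, while Cd40lg was 3.42-fold (1.70 to 8.04) and Cd28 2.03-fold (1.47 to 2.89) lower. Of 9 members with enough UMIs to be compared, 2 were thus at least 2-fold higher, against 3.76% of 5821 genes, and 2 at least 2-fold lower, against 10.9%. Enough means that the UMIs of both classes times the smaller class's share of all UMIs came to at least 5. When the Foxp3 class was limited to those 18 barcodes, both lower calls were lost, with ratios of 0.528 for Cd40lg and 0.548 for Cd28. Tnfrsf18 (2.84-fold) and Cd27 (2.003-fold) were then the members past 2-fold, and Tnfrsf4, at 5.51, had too few UMIs. The median log2 ratio was 0.42 over the 9 members and -0.11 over all genes. Icos (1.59-fold, 1.13 to 2.21), Cd27 (1.65-fold, 1.23 to 2.18) and Cd2 (1.34-fold) were higher by less, and Cd226 and Cd5 had ratios of 0.809 and 0.922. Tnfrsf9 (8.35-fold, 2.40 to 30.1) had too few UMIs to be counted.

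Among 7 inhibitory counterparts 5 could be compared and 2 were at least 2-fold higher in Foxp3 barcodes, against 3.76% of all genes. These were Ctla4 (4.85-fold, 3.48 to 6.71), which competes with CD28 for its ligands, and Tigit (6.01-fold, 3.89 to 9.24), which competes with CD226. Of 5 other costimulatory receptors Slamf1 was 2.84-fold higher and Slamf6 had a ratio of 0.482. Among 16 signalling genes none was higher and 2 were lower, the adaptor gene Grap2 (0.485) and Map3k14 (0.455), the kinase of the non-canonical NF-kB pathway. The call on Cd28 was near the threshold: without the neutrophil-marked barcode the ratio was 0.501, and with ribosomal protein shares of at least 10% it was 0.533, where Icos reached 2.04. After thinning to 2500 UMIs only Cd40lg was counted, since Tnfrsf18 stood at 1.91 and Tnfrsf4, at 5.20, had too few UMIs. Without the 1 barcode with most of its UMIs in each class Cd40lg was 8.25-fold lower. With at least 2 Foxp3 UMIs in the 1 class and 2 Cd4 UMIs in the other, Icos (2.83-fold) and Tnfrsf18 (5.58-fold) were further apart. Both classes changed in that setting. At a ribosomal share of at least 10% the Cd226 ratio turned to 1.36. With means over barcodes the Icos ratio was 1.20, its lowest value.

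**Figure D3:**
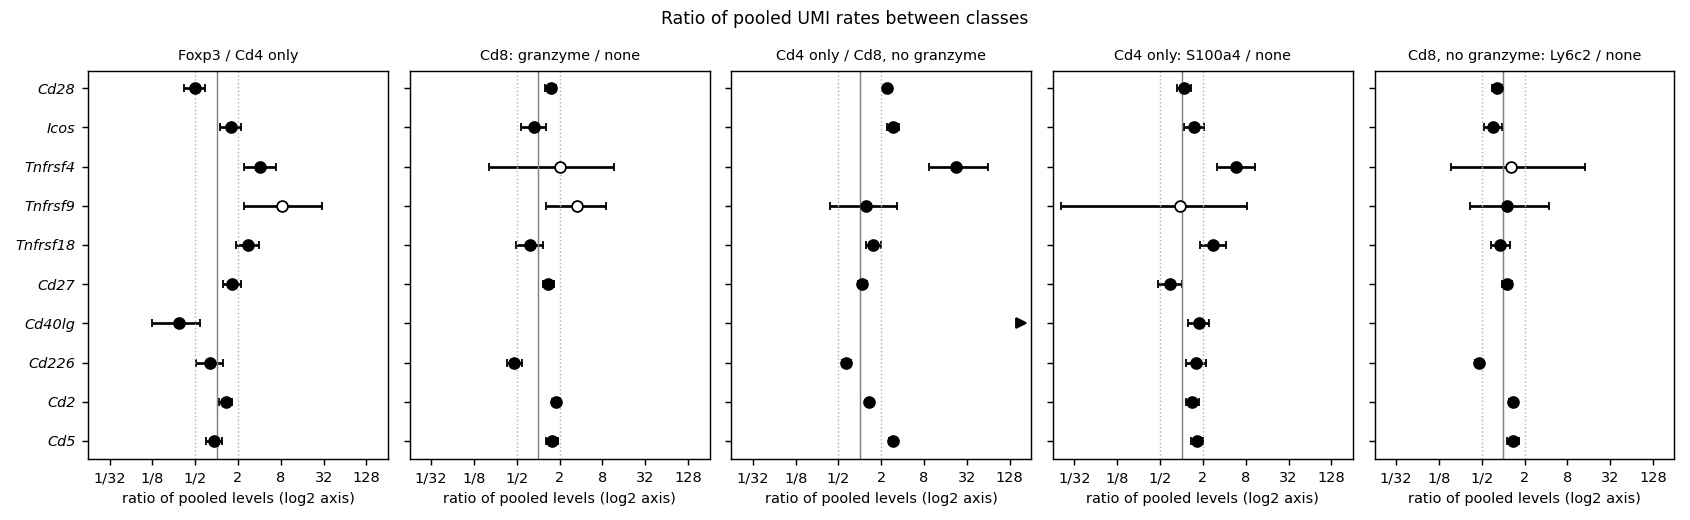
Ratio of pooled levels (x axis, log2 scale) for each gene in 5 comparisons, where bars are exact 95% counting intervals and dotted lines mark 2-fold. Open points had too few UMIs to be counted. The arrowhead is Cd40lg against a floor of 3 UMIs (185), above its exact lower limit of 149. Tnfrsf4 and Tnfrsf18 lie to the right for Foxp3 over Cd4-only barcodes (4.11 and 2.73) and for S100a4 (5.85 and 2.79), and Cd226 to the left for granzyme (0.461) and Ly6c2 (0.451), with Cd40lg not drawn where both classes were at or under 3 UMIs.

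Cd8-only barcodes with and without a granzyme UMI were compared to set effector against other CD8 T cells. Cd226 was 2.17-fold lower (1.71 to 2.79) with granzyme, and Cd2 (1.76-fold, 1.55 to 2.00), Cd5 (1.57-fold, 1.30 to 1.90), Cd28 (1.503-fold, 1.26 to 1.79) and Cd27 (1.38-fold, 1.15 to 1.65) were higher. Of 7 members compared, 0 were at least 2-fold higher, where 6.3% of 8640 genes were, and 1 was lower, where 8.26% were. The members' median log2 ratio was 0.47, against 0.06 over all genes. Tnfrsf9 (3.51-fold, 1.28 to 8.96) had 22 UMIs in both classes and was not counted, and the ratios of Icos (0.873, 0.565 to 1.30) and Tnfrsf18 (0.768, 0.480 to 1.18) had intervals that include 1.

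Around these, 3 of 5 inhibitory genes passed 2-fold with granzyme, 2 higher, where 6.3% of all genes were, and 1 lower, where 8.26% were. Tigit and Pdcd1 among them, and Cd244a named below, had enough UMIs only through the granzyme class, so such counts are descriptions. Tigit was 23.2-fold higher (14.9 to 37.2), at 1.55 against 0.0669 per 10000, Pdcd1, encoding PD-1, 29.5-fold higher (14.7 to 65.4), and Btla had a ratio of 0.365. Cd48, the mouse ligand of CD2, was 2.58-fold higher (2.23 to 2.98), and so were Cd244a (6.14-fold, 3.01 to 12.5), another CD48 receptor, and Tnfrsf1b (2.71-fold). Of 17 signalling genes only the adaptor gene Traf5 passed, with a ratio of 0.461. The difference in Cd226 moved with the ribosomal share: in barcodes of at least 10% the ratio was 0.738, and Cd28, at 2.08, was then the member past 2-fold. In clonotyped barcodes Cd226 stood at 0.650, and with the call set on Gzma or Gzmb alone at 0.539. After thinning to 2500 UMIs it was 0.304. Of 4 NK cell genes, Klre1 and Eomes, which memory CD8 T cells share, and Ncr1 and Klrb1c summed to 4.11 per 10000 in 71 of 106 barcodes with and 0.638 in 121 of 595 without granzyme. The defining gene Ncr1 was found in 1 barcode of each class, and the part of NK cell RNA in the differences was not tested.

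Within the granzyme class 43 barcodes belonged to T cell clonotypes of at least 2 barcodes and 52 to clonotypes seen once. Cd28 was 3.29 per 10000 (2.58 to 4.13) in the former and 2.14 (1.70 to 2.67) in the latter, and Cd2 5.82 (4.87 to 6.90) and 4.64 (3.97 to 5.39), with overlapping intervals for both genes. Cd27 (2.44 and 2.49), Cd5 (2.22 and 2.20) and Cd226 (1.07 and 1.17) were close to equal, with overlapping intervals. Barcodes of 1 clonotype descend from 1 cell and are not independent.

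Cd4-only and granzyme-negative Cd8-only barcodes were compared to set helper against cytotoxic lineage T cells. Only the Cd8-only side was limited to barcodes without a granzyme UMI. The cytotoxic genes Gzma, Gzmb, Gzmk, Prf1, Nkg7, Ccl5 and Cx3cr1 summed to 12.7 per 10000 in Cd4-only barcodes, where all 7 were found. These UMIs lay in 65 of the 351 barcodes. In granzyme-negative Cd8-only barcodes they summed to 22.4 and lay in 479 of 595. Only 4 were found there, since the rule of that class bars Gzma, Gzmb and Gzmk. Cd40lg was at least 149-fold higher in Cd4-only barcodes by its exact interval, and 185-fold against a floor of 3 UMIs. Tnfrsf4 was 22.2-fold higher (9.47 to 63.5), over a level that rests on 6 UMIs, Icos 2.91-fold (2.38 to 3.55), Cd5 2.90-fold (2.57 to 3.27) and Cd28 2.41-fold (2.15 to 2.70). With Cd40lg these 5 of 10 members were at least 2-fold higher, where 7.27% of 9963 genes were, and 0 were lower, where 3.85% were. Cd40lg and Tnfrsf4 had enough UMIs only through the class in which they were high, so the count is a description and supports nothing about the members. The median log2 ratio was 0.95 over the members and 0.24 over all genes. Tnfrsf18 was 1.55-fold (1.21 to 1.98) and Cd2 1.33-fold (1.20 to 1.48) higher, Cd226 had a ratio of 0.644 (0.554 to 0.746), and the ratios of Cd27 (1.08, 0.936 to 1.25) and Tnfrsf9 (1.21, 0.382 to 3.36) had intervals that include 1. The same 5 members passed under each of the other settings tried at 2-fold. With thinning to 2500 UMIs Cd40lg was 66.0-fold higher against the floor and the Cd27 ratio 0.918, while Tnfrsf4 ranged up to 42.9-fold over the settings.

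Inhibitory genes were also at least 2-fold higher in Cd4-only barcodes, 5 of the 6 compared, where 7.27% of all genes were. These were Lag3 (25.5-fold, 9.14 to 98.6), Pdcd1 (15.6-fold, 7.87 to 34.3), Tigit (5.45-fold), Ctla4 (3.13-fold) and Btla (2.78-fold). Lag3, Pdcd1 and the ligand gene Pvr named below were among the genes with enough UMIs only through the Cd4-only class, so such counts are descriptions. Tigit and Pdcd1 were also higher in the granzyme-positive Cd8-only barcodes, left out here, than in the granzyme-negative ones. Among 8 other costimulatory receptors Slamf1 (7.76-fold), Tnfrsf25 (3.76-fold), Slamf6 (2.29-fold) and Cd6 (2.08-fold), a relative of CD5, were higher, and Crtam, a receptor of CD8 and NK cells, had a ratio of 0.190 (0.102 to 0.326). Of 4 ligand genes compared Pvr, encoding CD155, was 3.92-fold higher (1.82 to 8.71), and Cd86 (0.0436) and Cd72 (0.142) were lower. None of 17 signalling genes passed 2-fold in either direction.

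Cd4-only barcodes were further split by S100a4, a calcium-binding protein gene high in effector and memory T cells. The 43 barcodes with an S100a4 UMI had 1.09 Tnfrsf4 UMIs per 10000 and the 308 without 0.186, a ratio of 5.85 (3.17 to 10.9). Tnfrsf18 was 1.63 and 0.583, 2.79-fold higher (1.83 to 4.21). These were 2 of 9 members at least 2-fold higher, where 7.46% of 6538 genes were, and 0 were lower, where 15% were. Tnfrsf4 had enough UMIs only through the barcodes with S100a4, so the count is a description and supports nothing about the members. The median log2 ratio was 0.68 over the members and -0.08 over all genes. Cd40lg (1.75-fold, 1.25 to 2.42), Cd5 (1.64-fold), Cd226 (1.60-fold), Icos (1.51-fold) and Cd2 (1.42-fold) were higher by less, Cd28 had a ratio of 1.09 (0.871 to 1.34) and Cd27 of 0.695 (0.470 to 0.9997).

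Of 6 inhibitory genes 4 were at least 2-fold higher with S100a4, where 7.46% of all genes were. These were Lag3 14.2-fold, Tigit 13.4-fold, Pdcd1 8.95-fold and Ctla4 2.36-fold, and Btla had a ratio of 0.472. Lag3, Tigit and Pdcd1 had enough UMIs only through the barcodes with S100a4, so the count is a description. Cd48 was 2.19-fold and Tnfrsf1b 4.39-fold higher, and Tnfrsf14 had a ratio of 0.326 (0.0377 to 1.29). Ikzf2, a regulatory T cell marker, was 1.73-fold higher (1.18 to 2.49). When Cd4-only barcodes with a UMI of Il2ra, Ikzf2 or Ctla4 were left out, Tnfrsf4 stood at 2.38 and had too few UMIs to be counted, Tnfrsf18 at 1.94, and Cd40lg (2.04), Cd226 (2.43) and Cd27 (0.390) were past 2-fold instead. Median UMIs were 4900 in barcodes with and 3193 in those without an S100a4 UMI. Low ribosomal shares were found in 9.30% of barcodes with and 44.5% of those without an S100a4 UMI. Within barcodes of at least 10% ribosomal share Tnfrsf4 was 4.81-fold, Tnfrsf18 2.26-fold and Cd226 2.94-fold higher.

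Granzyme-negative Cd8-only barcodes were split by Ly6c2, a surface protein gene high in memory CD8 T cells. Cd226 was 1.70 per 10000 (1.53 to 1.87) in the 282 barcodes with a Ly6c2 UMI and 3.76 (3.46 to 4.08) in the 313 without, 2.22-fold lower (1.95 to 2.53). It was the only 1 of 8 members past 2-fold, where 10.1% of 10048 genes were lower and 2.94% higher. The members' median log2 ratio was 0.03 and that of all genes -0.25. Cd2 (1.39-fold, 1.23 to 1.59) and Cd5 (1.37-fold, 1.14 to 1.65) were higher with Ly6c2, and Cd28 (0.819, 0.701 to 0.958) and Icos (0.715, 0.535 to 0.956) lower. Depth differed too, with median UMIs of 8674 with and 4081 without Ly6c2, and after thinning to 2500 UMIs the Cd226 ratio was 0.432. The shares of barcodes of low ribosomal content were 14.9% with and 48.2% without Ly6c2. Within barcodes of at least 10% the ratio of Cd226 was 0.767, of Cd28 1.04 and of Icos 1.06, and in clonotyped barcodes Cd226 stood at 0.676. Neutrophil genes summed to 585 UMIs in 8 of the 595 barcodes, where S100a8 had 0 UMIs with and 248 without Ly6c2, and Cd226 remained the only member past 2-fold without barcodes that held such genes. Of 4 inhibitory genes Tigit alone passed 2-fold with Ly6c2, at a ratio of 2.69 whose interval (0.986 to 9.12) includes 1. Of 4 ligand genes Cd86 (0.327) and Pvr (0.400, 0.103 to 1.39) were past 2-fold lower, none of 8 other costimulatory receptors passed 2-fold, and of 17 signalling genes Map3k14 was lower (0.438).

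**Figure D4:**
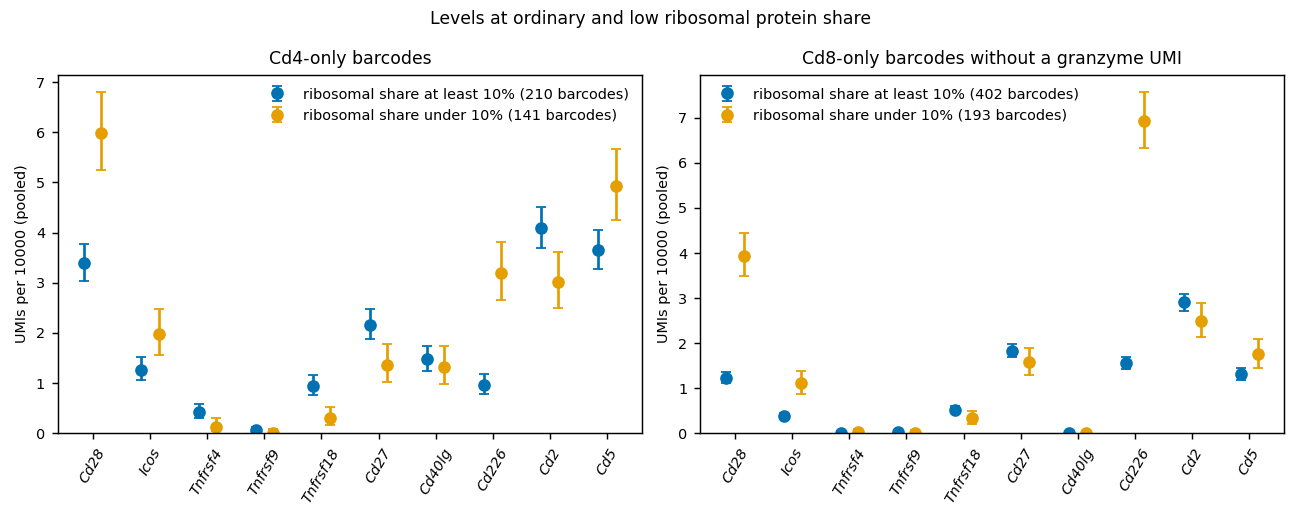
Pooled level of each gene (y axis, UMIs per 10000) in Cd4-only and in granzyme-negative Cd8-only barcodes with a ribosomal protein share of at least 10% (blue) or under 10% (orange), where bars are exact 95% Poisson intervals. In Cd8-only barcodes Cd226 is 1.55 and 6.93 and Cd28 1.24 and 3.94 at the higher and the lower share, while Tnfrsf18 is lower at low share in Cd4-only barcodes (0.951 and 0.305).

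Cd226, Cd28, Icos and Cd5 were higher at the low ribosomal share inside both large classes. In granzyme-negative Cd8-only barcodes Cd226 was 1.55 per 10000 in 402 barcodes of at least 10% and 6.93 in 193 below, and Cd28 1.24 and 3.94. In Cd4-only barcodes Cd226 was 0.972 and 3.20, and Cd28 3.39 and 5.99. Icos was 0.378 and 1.11 in these Cd8-only and 1.27 and 1.98 in Cd4-only barcodes. Cd5 was 1.31 and 1.75 in the Cd8-only and 3.65 and 4.93 in the Cd4-only barcodes. Tnfrsf18 went the other way in Cd4-only barcodes, 0.951 and 0.305, as did Tnfrsf4, 0.430 and 0.127, Cd27, 2.16 and 1.37, and Cd2, 4.08 and 3.02. What the ribosomal share stands for was not tested. Cd226 is also known from platelets, whose marker genes (Pf4, Ppbp, Itga2b, Gp9) were found in 82 of the 595 granzyme-negative Cd8-only barcodes. In barcodes without a platelet marker UMI Cd226 was 6.71 at low and 1.58 at ordinary ribosomal share, close to the values over all barcodes, and the ratio with granzyme was 0.443.

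Receptors were found together in the Foxp3 class more often for some pairs and less often for others. Of its 12 barcodes with Tnfrsf4, 11 held Tnfrsf18, against 25.9% of the other 27. Of the 21 with Cd28, 14 held Icos, against 16.7% of the other 18. Cd226 went the other way, in 28.6% of barcodes with Cd28 against 55.6% of the rest and in 29.4% of those with Icos against 50% of the rest. This did not hold in Cd4-only barcodes. There Cd226 was in 39.0% of those with Cd28 against 21.6% of the rest, and in 34.4% of those with Icos against 33.6%. The Foxp3 class also held 8 barcodes with Cd8a or Cd8b1 UMIs. All 5 barcodes with Tnfrsf9 held Cd27, against 61.8% of the rest, and 4 of them Tnfrsf4. Of the 18 barcodes with Tnfrsf18, 13 held Ctla4. The share in the rest is not given, so this count does not show whether the pair was found together more often. Of the 14 with Il2ra, 13 held Cd27, which was found in 26 of all 39. In Cd4-only barcodes 14 of 29 with Tnfrsf4 held Tnfrsf18 (48.3%), against 18.0% of the rest. These counts rise with the depth of a barcode and are given without a test.

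The median barcode held UMIs of 5 of the 10 genes in the Foxp3 class, of 4 in the Cd4-only and both Cd8-only classes and of 1 in the Cd79a class. None of the 10 was found in 10 of 351 Cd4-only, 16 of 595 and 0 of 106 Cd8-only without and with granzyme, 1 of 39 Foxp3 and 28 of 106 Cd79a barcodes. At 2500 UMIs the medians were 4 in Foxp3, 3 in Cd4-only, 2 in both Cd8-only and 1 in Cd79a barcodes.

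The genes whose levels over the 5 classes were most like those of a member were ranked by the root mean square difference of centred log2 levels among 7145 genes. The closest to Cd27 was Dok2 (0.128), to Cd28 Stk39 (0.215), to Icos Tnfrsf25 (0.355), to Tnfrsf18 Ccs (0.375), to Cd226 Plcxd2 (0.144) and to Cd2 Capza2 (0.0176). Next to Cd5 stood Rab11fip4 (0.251). With 5 points from 1 library, such likeness is a description. Tnfrsf4, Tnfrsf9 and Cd40lg had classes at 0 and were not ranked.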

How the data were processed

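Peripheral blood T cells of 1 vehicle-treated mouse were profiled with 10x Genomics chemistry. The deposited matrix holds unnormalized UMI counts for every gene in every barcode, without a filter on barcodes, made by the authors with Cell Ranger 4 per the file headers on GRCm38 per the labels, and a table of TCR contigs, of which only the clonotype of each barcode was used. From the counts, 1600 of 300213 barcodes with at least 1331 UMIs, the 99th percentile of the top 3000 totals divided by 10, were kept, and were given classes by their UMIs. No doublet caller was run, and 46 barcodes with Cd4 and Cd8 and neither Cd79a nor Foxp3 entered no comparison, while mixed barcodes of the Foxp3 and Cd79a classes stayed in. Pooled UMIs per 10000 were compared with Python 3.11.15, numpy 2.4.6 and scipy 1.17.1, on 1 library and without a p-value. A gene was compared at 5 expected UMIs and called at 2-fold. Some genes reached the 5 only through the class in which they were high, so counts past 2-fold are descriptions. Shares were also taken after thinning to 2500 UMIs, leaving out shallower barcodes (265 of 351 Cd4-only, 34 of 39 Foxp3, 541 of 595 and 101 of 106 Cd8-only and 79 of 106 Cd79a barcodes remained). Free RNA was read from 20532 barcodes of 10 to 50 UMIs. Simulated data served only to check the code of the ratios and intervals. They were drawn from the Poisson model that the intervals assume, without spread between cells, and so cannot test that model. Members, gene lists, splits by S100a4 and Ly6c2 and alternatives were chosen with earlier results of these data known. Named genes are all members, genes of the other lists past 2-fold and direct partners of members, and for each ranked member the 1 nearest gene by likeness. Gene positions and promoters were matched by symbol to RefSeq tables of GRCm38.p6. PCR duplicates are collapsed by UMIs. The signalling genes in the S100a4 comparison are not reported here.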

Additional observations from a re-analysis of the deposited data

Results flagged for a closer look

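Cd226 UMIs appeared in barcodes that no comparison used. In 1908 barcodes of 200 UMIs up to the limit, Cd226 came to 8.07 per 10000 (7.42 to 8.75, from 582 UMIs), above the 1.70 of barcodes with 10 to 50 UMIs, while the other 9 members ranged from 0.0139 to 0.776. It was 9.58 (8.80 to 10.4) in the 1560 of these barcodes with a platelet marker UMI and 2.27 (1.57 to 3.17) in the 348 without.

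Cd40lg gave 63 UMIs in 41 of 211 barcodes with Cd3e but without a Cd4, Cd8a or Cd8b1 UMI, 0.816 per 10000 (0.627 to 1.04), which is above the 0.216 of barcodes with 10 to 50 UMIs and below the 1.43 of Cd4-only barcodes. Cd28 was 3.25 and Tnfrsf4 0.0648 there.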

How the results depend on the processing

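No direction of a called member was reversed, and 69 alternative counts of members past 2-fold stayed within 1.5 times of the reported ones. Of the 9 that did not, limiting the Foxp3 class to barcodes with Cd4 gave 2 in place of 4, and thinning to 2500 UMIs left 1 of 4 in Foxp3 against Cd4-only barcodes. The granzyme comparison, with 1, went to 0 in clonotyped barcodes, 0 with the call on Gzma or Gzmb and 4 at 1.5-fold. The S100a4 comparison, with 2, went to 6 at 1.5-fold. It went to 1 when at least 2 Cd4 UMIs, and at least 2 S100a4 UMIs on the side with S100a4, were asked. The Ly6c2 comparison, with 1, went to 0 at a ribosomal share of at least 10% and 0 in clonotyped barcodes. For member ratios, 685 alternatives stayed inside the counting interval and 31 did not. The cause was not tested. Removal of barcodes with platelet, neutrophil or regulatory T cell markers, or with Cd8 or without Cd4 in the Foxp3 class, was chosen after seeing the data. Counts alone do not say which members were called: with at least 2 Foxp3 UMIs against at least 2 Cd4 UMIs they were Icos, Tnfrsf18 and Cd40lg. The Foxp3 class held 39 barcodes and 191653 UMIs, and the spread between mice is not covered by any interval. No paired analysis was possible because there was 1 library, and no library could be left out.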
